A study of Homo sapiens with 18 samples.

Results

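The convertases FURIN, PCSK5, PCSK6 and PCSK7, the convertase inhibitor PCSK1N, the carboxypeptidases CPE and CPD and the amidating enzyme PAM were followed through 18 RNA-Seq libraries of HEK293doxERN2 cells. These 8 genes were taken by their symbols from the 25435 rows of the gene count table, and all 8 had enough reads to be tested in each of 10 comparisons. The 8 were chosen with earlier results of these data known, so their counts beside all genes are descriptive. At the higher dose of doxycycline, which switches on an ERN2 transgene in these cells, the mRNAs of 7 of the 8 fell, to between 24.9% (CPE) and 53.6% (PCSK5) of their level without doxycycline. PCSK7 had a log2 fold change of -0.40 in control cells, which did not pass the threshold. It was called lower with the other 7 when the cells were also given thapsigargin. The interaction that compares these 2 responses was not called for any of the 8.

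Proprotein convertases are serine proteases of the trans-Golgi network, the cell surface and endosomes that cut precursor proteins after clusters of basic residues. Carboxypeptidases then trim the basic residues that this cut exposes, and PAM turns a C-terminal glycine into an amide, the last step in the making of many peptide hormones. FURIN and its relatives act in nearly all cells on growth factors, receptors, integrins and metalloproteinases, whereas PCSK1N, CPE and PAM are best known from endocrine and neural cells.

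HEK293 is a human embryonic kidney line, and HEK293doxERN2 carries a FLAG-tagged ERN2 gene under doxycycline control in all groups. ERN2 (IRE1β) is the epithelial form of the ER stress sensor IRE1, a kinase and endoribonuclease that splices XBP1 mRNA and cuts other mRNAs. For 24 hours the cells were left without doxycycline (0 ng/mL) or given it at 10 ng/mL or at 100 ng/mL, followed by either 200 nM thapsigargin, a blocker of the ER calcium pump, or its DMSO vehicle (control) for 3 hours, with 3 libraries in each of the 6 groups. Doxycycline itself and ERN2 cannot be told apart, since no line without the transgene was analysed here. Whether the line is 1 clone, and whether the 3 libraries of a group came from separate cultures, is not given in the sources used here, so the p-values measure the spread between these libraries, which may be technical.

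Library totals ran from 14876416 to 24652240 counts, and the 8 genes had between 35 and 7057 counts in a library. Levels are given as CPM, read counts scaled to library depth with the TMM method over the 18 libraries, as mean ± SD of n = 3. ERN2 itself was at 7.79 ± 1.27 CPM in control cells without doxycycline, 35.2 ± 18.1 CPM at 10 ng/mL and 270.0 ± 34.1 CPM at 100 ng/mL. The 3 libraries at 10 ng/mL were uneven, with 22.5, 27.1 and 55.9 CPM of ERN2 in control cells and 32.1, 53.9 and 112 CPM with thapsigargin. With thapsigargin and no doxycycline, the ER stress gene DDIT3 stood at 155 ± 1.79 CPM against 9.98 ± 1.28 CPM in control cells. The submitters' extraction protocol names colon crypt cells as the source of the RNA, although each library is labelled as HEK293. The genes examined as markers of HEK293, VIM, KRT8, KRT18, NEFL, NEFM, INA and PAX2, had counts in every library, PAX2 at 1.20 to 4.35 CPM. Whether each of them tells HEK293 from colon cells was not tested. The goblet cell gene TFF3 had 0 counts in all 18 and MUC2 at most 0.243 CPM. Of the 9 colon markers examined, CDX2, EPCAM and LGR5 had counts in all libraries, at up to 8.83, 22.3 and 35.5 CPM. Of the endocrine markers examined, the hormone gene INS was at 0 in all 18 libraries as well, and CHGA and NEUROD1 reached at most 1.42 and 0.156 CPM. SYP, PCSK1 and PCSK2 had counts in every library, at up to 13.2, 2.29 and 14.7 CPM.

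Per kilobase of the main transcript, control cells without doxycycline held the most mRNA for CPE (104 CPM per kb), then PAM (56.8), FURIN (45.8), CPD (34.2), PCSK6 (19.7), PCSK1N (16.1), PCSK7 (11.1) and PCSK5 (5.87). With the union of all annotated exons as length, CPE stayed first at 85.1 CPM per kb, but PAM moved behind FURIN and CPD at 18.6 and PCSK7 moved to the last place at 2.30. CPE was first under both lengths, and FURIN the first convertase.

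The RNase of IRE1 proteins is known to cut RNA in loops that often hold CTGCAG, given here in DNA letters. The main coding sequences of 7 of the 8 genes held this hexamer, against 70.5% of 13119 tested genes and 75.8% of the 9635 whose coding length lay within the range of these 8. CPD was the gene without it, even in a main transcript of 9394 bases. The median density was 1.06 per kb of coding sequence for the 8 genes and 0.906 for the genes of like coding length. The windows of the most abundant convertase and carboxypeptidase mRNAs per length, and the single ones of PCSK1N and PAM, are shown with the hexamer in capitals, on the sense strand in GENCODE 29 (GRCh38).
FURIN, exon 3, chr15:90876324-90876353, plus strand: cggcacagccggCTGCAGagggagcctcaa
FURIN, exon 16, chr15:90881687-90881716, plus strand: gtcttcctggtcCTGCAGctgcgctctggc
CPE, exon 1, chr4:165379336-165379365, plus strand: cggcgccggcggCTGCAGcaagaggacggc
CPE, exon 1, chr4:165379411-165379440, plus strand: gtgtccgtgtggCTGCAGtgcaccgccatc
PCSK1N, exon 2, chrX:48832044-48832073, minus strand: accccgacgcgcCTGCAGcgcagctcgctc
PAM, exon 16, chr5:103003107-103003136, plus strand: atccaaataatgCTGCAGtactccagtcca
These are matches of letters in coding exons. Cutting of these RNAs was not measured, and gene counts carry no trace of where an RNA ends.

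Among the convertases, FURIN, the best studied of them (chr15:90868592-90883458, plus strand), was the most abundant. Its 3 control libraries without doxycycline had 211, 183 and 204 CPM, those at 10 ng/mL had 120.1, 139 and 102 CPM, and those at 100 ng/mL had 53.9, 65.2 and 55.2 CPM. The 3 doses did not overlap. Against cells without doxycycline, the log2 fold change of FURIN was -1.82 at 100 ng/mL (standard error 0.119, adjusted p = 5.72e-07, edgeR's quasi-likelihood test, adjusted by Benjamini-Hochberg over every tested gene), a fall to 29.2%. At 10 ng/mL it was -0.73 (standard error 0.123, adjusted p = 0.0171), which missed the threshold of 0.01.

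PCSK6 (PACE4; chr15:101297142-101525202, minus strand), which acts at the cell surface and in the matrix on TGF-β family precursors, had 82.5, 82.6 and 94.9 CPM without doxycycline, 63.4, 69.2 and 54.4 CPM at 10 ng/mL and 32.7, 40.1 and 41.3 CPM at 100 ng/mL. Again no library of one dose reached into the next. PCSK6 thus fell at 100 ng/mL, with a log2 fold change of -1.23 (standard error 0.128, adjusted p = 2.71e-05). An antisense transcript on the other strand, AC023024.1, shares 1428 exonic bases with PCSK6 and has no row in the count table. AC023024.2, on the same strand as PCSK6, shares 1214 exonic bases and has no row either. PCSK5 (chr9:75890644-76362339, plus strand), whose known substrates include GDF11, had the fewest counts of the convertases, with 32.2, 34.6 and 34.6 CPM without doxycycline and 18.7, 16.1 and 19.5 CPM at 100 ng/mL. It fell by 0.94 on the log2 scale (standard error 0.126, adjusted p = 0.000194), the smallest fall of the 7.

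PCSK7 (chr11:117204337-117232525, minus strand), known for shedding the transferrin receptor, was the exception. Control libraries had 53.1, 45.8 and 55.3 CPM without doxycycline, 48.8, 61.3 and 59.7 CPM at 10 ng/mL and 34.1, 47.0 and 39.1 CPM at 100 ng/mL. The highest library at 100 ng/mL lay above the lowest without doxycycline, and the log2 fold change of -0.40 (standard error 0.143) had an adjusted p of 0.088. The call turned on replicate 2 at 100 ng/mL, without which the adjusted p was 0.00748. In the annotation, PCSK7 shares 446 exonic bases with TAGLN on the other strand. It shares more, 3940 exonic bases, with AP000892.3, also on the other strand, which has no row in the count table and could not be examined. Because the sources used here do not give the strand used in counting, reads from overlapping genes there cannot be told apart. TAGLN differed by 0.08 on the log2 scale between the same groups (standard error 0.163, adjusted p = 0.782).

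**Figure D1:**
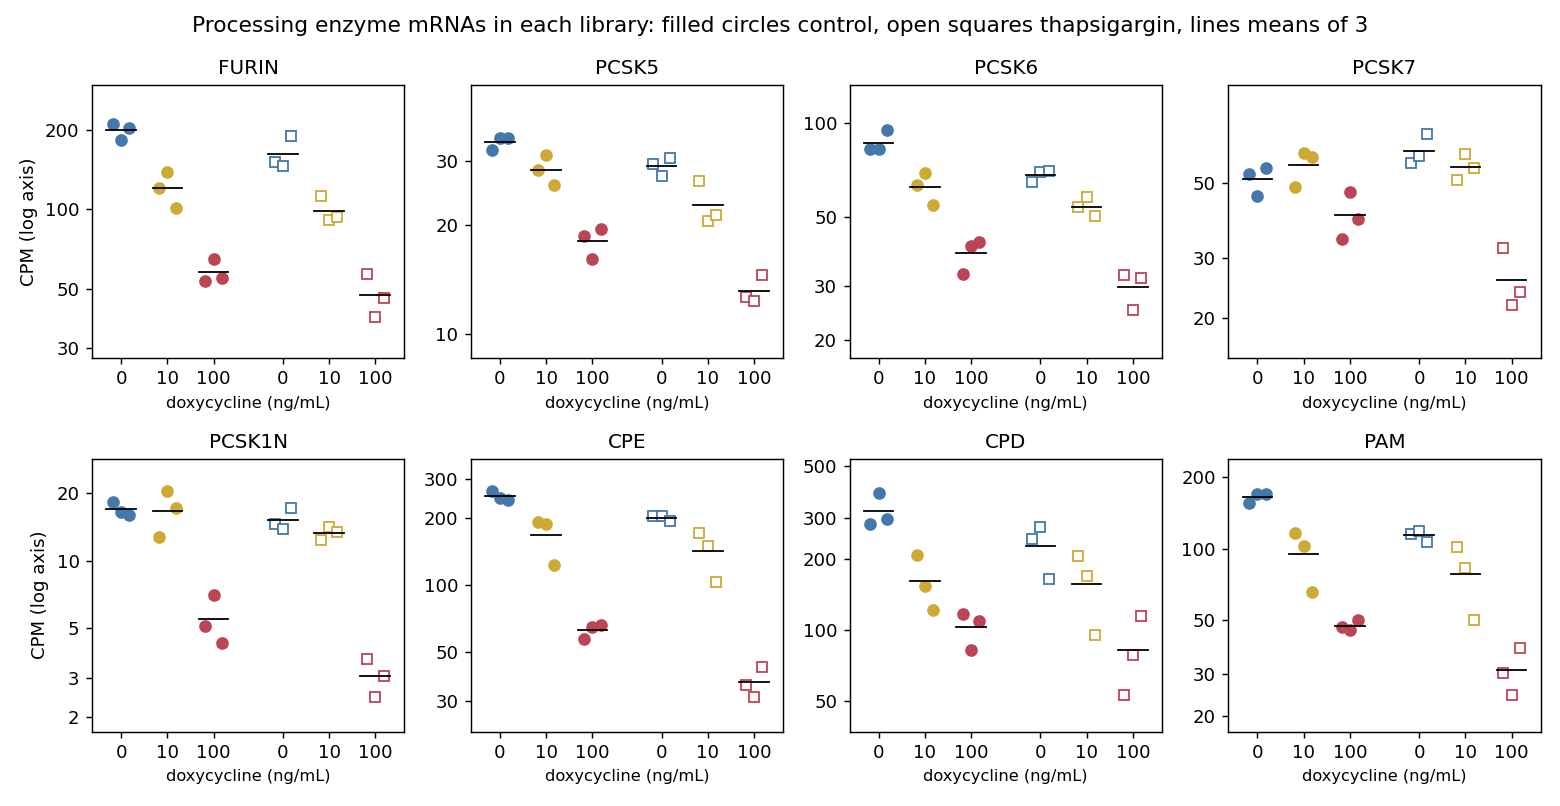
CPM of each gene in each library on log axes, by dose of doxycycline, with filled circles for control cells, open squares for thapsigargin-treated cells and lines for the mean of 3 libraries. At 100 ng/mL the 3 control libraries lay below all 3 without doxycycline for every gene but PCSK7, for which 47.0 CPM at 100 ng/mL exceeded 45.8 CPM at 0 ng/mL.

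PCSK1N (proSAAS; chrX:48831094-48835633, minus strand), the endogenous inhibitor of the hormone convertase PCSK1, was the shallowest of the 8, with 81 to 171 counts per control library at 100 ng/mL. Its level was 18.3, 16.4 and 16.1 CPM without doxycycline and 12.7, 20.4 and 17.1 CPM at 10 ng/mL, which overlapped, and then 5.11, 7.04 and 4.30 CPM at 100 ng/mL. PCSK1N thus fell at 100 ng/mL by 1.65 on the log2 scale against 0 ng/mL (standard error 0.187, adjusted p = 5.22e-05) and by 1.62 against 10 ng/mL (standard error 0.222, adjusted p = 0.00326). Between 0 and 10 ng/mL its difference was -0.02 (standard error 0.171, adjusted p = 0.94).

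CPE (chr4:165361194-165498320, plus strand), the carboxypeptidase of prohormone processing, showed the largest fall of the 8 at 100 ng/mL in control cells. The libraries had 266, 248 and 241 CPM without doxycycline, 193, 188 and 123 CPM at 10 ng/mL and 57.3, 64.8 and 65.8 CPM at 100 ng/mL, with no overlap between doses. Its log2 fold change between 0 and 100 ng/mL came to -2.05 (standard error 0.108, adjusted p = 1.8e-07), or 4.02-fold lower. CPD (chr17:30378905-30469989, plus strand), the membrane-bound carboxypeptidase of the trans-Golgi network, had 282, 383 and 297 CPM without doxycycline, 209, 154 and 122 CPM at 10 ng/mL and 118, 82.0 and 109 CPM at 100 ng/mL. It fell by 1.68 at 100 ng/mL (standard error 0.151, adjusted p = 8.44e-06). CPD stood at 50.4% of its level without doxycycline at 10 ng/mL and at 32.1% at 100 ng/mL, and its 3 doses did not overlap.

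The RefSeq table (GRCh38.p14) gives 1 promoter of CPE, and it held 2 copies of TGACGTGG, the UPRE core bound by XBP1 and ATF6, starting 221 and 120 bases before the start site. Of 35116 promoters of the same length, 0.729% held this octamer on either strand, and it was in none of the promoters of the other 7 genes. The ER stress elements ERSE (CCAAT and CCACG with 9 bases between) and ERSE-II (ATTGG and CCACG with 1 base between), each searched on both strands and present in 0.0769% and 0.0541% of promoters, matched no promoter of the 8. The stretch with both copies, shown since CPE fell most, is printed with the octamers in capitals.
CPE promoter, chr4:165378777-165378905, plus strand: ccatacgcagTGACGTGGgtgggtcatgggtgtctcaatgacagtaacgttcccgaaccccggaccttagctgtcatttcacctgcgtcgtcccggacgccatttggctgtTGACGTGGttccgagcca
Binding at these letters was not measured.

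PAM (chr5:102753981-103031105, plus strand) had 154, 169 and 169.7 CPM without doxycycline, 116, 102 and 66.0 CPM at 10 ng/mL and 47.0, 45.5 and 50.3 CPM at 100 ng/mL. Its 3 doses did not overlap, and at 100 ng/mL it fell by 1.83 on the log2 scale (standard error 0.106, adjusted p = 2.79e-07), to 28.9%.

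In control cells at 100 ng/mL, 7 of the 8 genes were thus called lower, where 7.49% of 14444 tested genes were called lower, and none was called higher. The same 7 were lower without overlap between the groups' libraries, as were 16.1% of all tested genes. The median log2 fold change of the 8 was -1.67, beside -0.01 over all genes tested. The 7 calls held under each of 6 other settings of the test at the same threshold and in each of 6 fits that left out a library. A threshold of 0.05, which cannot lose a call made at 0.01, gave the same 7. Bulk RNA cannot tell fewer expressing cells from less RNA per cell.

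At 10 ng/mL in control cells, the calls depended on the test. None of the 8 was called by edgeR, where 0.0552% of 14497 genes were called lower, although 5 (FURIN, PCSK6, CPE, CPD and PAM) had an unadjusted p below 0.05, as did 30.5% of all genes. DESeq2, the tool named in the submitters' processing notes, called those same 5, and 2.31% of the genes to which it gave an adjusted p were called lower by it. Without replicate 1 at 10 ng/mL, edgeR called the same 5 too, but calls over all genes then went from 28 to 2743, with 10.7% of genes called lower. The groups did not overlap for 6 of the 8, all lower, against 15.3% of all tested genes, and the median of the 8 was -0.53 beside 0.00 over all genes. CPD was the lowest at -0.99 (standard error 0.176, adjusted p = 0.0221) and PAM next at -0.80 (standard error 0.167, adjusted p = 0.0502).

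FURIN, PCSK1N and CPE fell between 10 and 100 ng/mL, and 2.43% of 14549 genes were called lower there. CPE differed by -1.45 (standard error 0.175, adjusted p = 0.00268) and FURIN by -1.08 (standard error 0.141, adjusted p = 0.00303). All 8 were lower without overlap between the 2 doses, against 12.9% of all genes. These 3 calls were lost without replicate 2 at 10 ng/mL and without replicate 1 or replicate 3 at 100 ng/mL, with adjusted p values up to 0.0309. In these fits the calls over all genes fell from 356 to 9, 21 and 0. DESeq2 called 6 of the 8, beside 5.61% of genes called lower by it.

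The library at 10 ng/mL with the most ERN2, replicate 3, had the lowest level of 6 of the 8 genes among the 3 control libraries of its dose, and of 4 of 8 with thapsigargin. PAM stood at 66.0 CPM in it, against 116 and 102 CPM in the other control libraries at 10 ng/mL. At 100 ng/mL this did not recur. The control library with the most ERN2 (replicate 2, 309 CPM) was lowest for 3 of the 8 genes and highest for 3. Its thapsigargin counterpart (replicate 1, 272 CPM) was lowest for 1 and highest for 4. The share of all genes that were lowest in each library was not counted. Added up, the 8 mRNAs made 1125 ± 33.5 CPM in control cells without doxycycline, 709 ± 121 CPM at 10 ng/mL and 373 ± 10.3 CPM at 100 ng/mL, or 33.2% of the first. With thapsigargin the sums were 879 ± 35.6, 622 ± 129 and 269 ± 41.6 CPM. Since the libraries fall into dose groups, no correlation with ERN2 was computed over them.

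**Figure D2:**
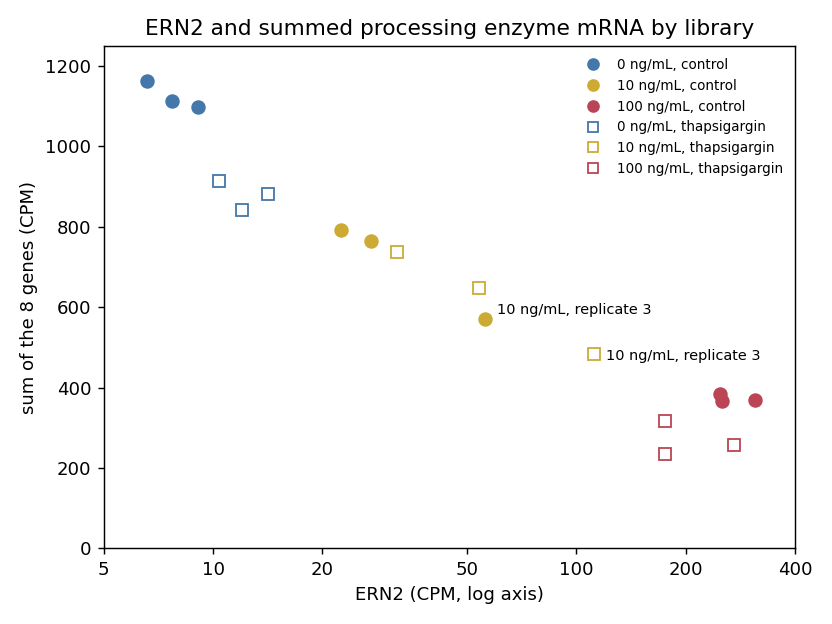
Summed CPM of the 8 genes against ERN2 CPM (log axis) in each of the 18 libraries, with colours for the dose and open squares for thapsigargin. Replicate 3 at 10 ng/mL, with the most ERN2 of its dose at 55.9 CPM (control) and 112 CPM (thapsigargin), had the smallest sums of its dose, 570 and 482 CPM.

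Under thapsigargin, all 8 mRNAs fell at 100 ng/mL, PCSK7 included. PCSK7 had 57.4, 60.0 and 69.5 CPM without doxycycline, 51.0, 60.9 and 55.4 CPM at 10 ng/mL and 32.2, 21.8 and 23.8 CPM at 100 ng/mL. The last 3 lay below all the others, and the log2 fold change of PCSK7 between 0 and 100 ng/mL was -1.26 (standard error 0.176, adjusted p = 0.000273), while TAGLN differed by -0.10 (standard error 0.288, adjusted p = 0.833).

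CPE again fell most under thapsigargin, from 205, 204 and 195 CPM to 35.2, 31.1 and 42.6 CPM, a log2 fold change of -2.48 (standard error 0.153, adjusted p = 1.06e-06). PCSK1N followed, from 14.6, 13.9 and 17.1 CPM to 3.62, 2.46 and 3.05 CPM, with a log2 fold change of -2.31 (standard error 0.213, adjusted p = 1.55e-05). The lowest of these PCSK1N values rested on 35 counts. PAM fell by 1.88 (standard error 0.174, adjusted p = 1.61e-05), from 115, 119 and 107 CPM to 30.3, 24.5 and 38.4 CPM.

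FURIN had 151, 146 and 189 CPM with thapsigargin alone and 57.1, 39.4 and 46.3 CPM at 100 ng/mL, a log2 fold change of -1.77 (standard error 0.168, adjusted p = 1.8e-05). PCSK6 fell by 1.20 on the log2 scale (standard error 0.154, adjusted p = 0.000154). PCSK5 fell by 1.14 (standard error 0.162, adjusted p = 0.000322). CPD was the most scattered of the 8, with 243, 274 and 164 CPM at 0 ng/mL and 52.9, 78.5 and 115 CPM at 100 ng/mL. It fell by 1.48 (standard error 0.26, adjusted p = 0.0015), a call that was lost without replicate 2 at 100 ng/mL (adjusted p = 0.0144). That library had the lowest total of the 18 and the lowest level of 7 of the 8 genes in its group. CPD was the exception, with its middle value, 78.5 CPM, there.

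At 100 against 0 ng/mL, 8 of 8 were called lower under thapsigargin, beside 9.00% of 14358 tested genes, and 8 of 8 were lower without overlap, beside 20.4%. Their median was -1.62, and that of all genes 0.04. The count was 8 under each of 7 other settings too.

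At 10 ng/mL under thapsigargin, the fit without pairing called none of the 8 and 0% of 14509 genes lower, and 612 genes (4.22%), 5 of the 8 among them, had an unadjusted p below 0.05. DESeq2 called 1 of the 8, FURIN, and 0.325% of genes lower. The labels give replicate numbers but do not say that equal numbers are paired. In these 2 groups each of the 3 same-numbered pairs deviated from its group means in a like way (r of 0.343 to 0.468). A differently numbered pair of another comparison reached 0.498, and the mean over all 45 same-numbered pairs was 0.07. These correlations therefore cannot show pairing, and the block is given as an alternative. With the replicate number as a block, edgeR called 5 of the 8 lower, beside 2.53% of all tested genes. FURIN was at -0.72 (adjusted p = 4.5e-06 with the block, 0.292 without), CPD at -0.58 (4.62e-05 and 0.978), CPE at -0.54 (0.000161 and 0.972), PAM at -0.59 (0.000687 and 0.978) and PCSK6 at -0.35 (0.00288 and 0.966). Levels of FURIN were 112, 91.3 and 93.4 CPM at 10 ng/mL, all below the 3 without doxycycline. Without overlap, 5 of the 8 were lower, against 5.40% of all genes, and CPD, at 207, 170.0 and 95.2 CPM, was not one of them.

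**Figure D3:**
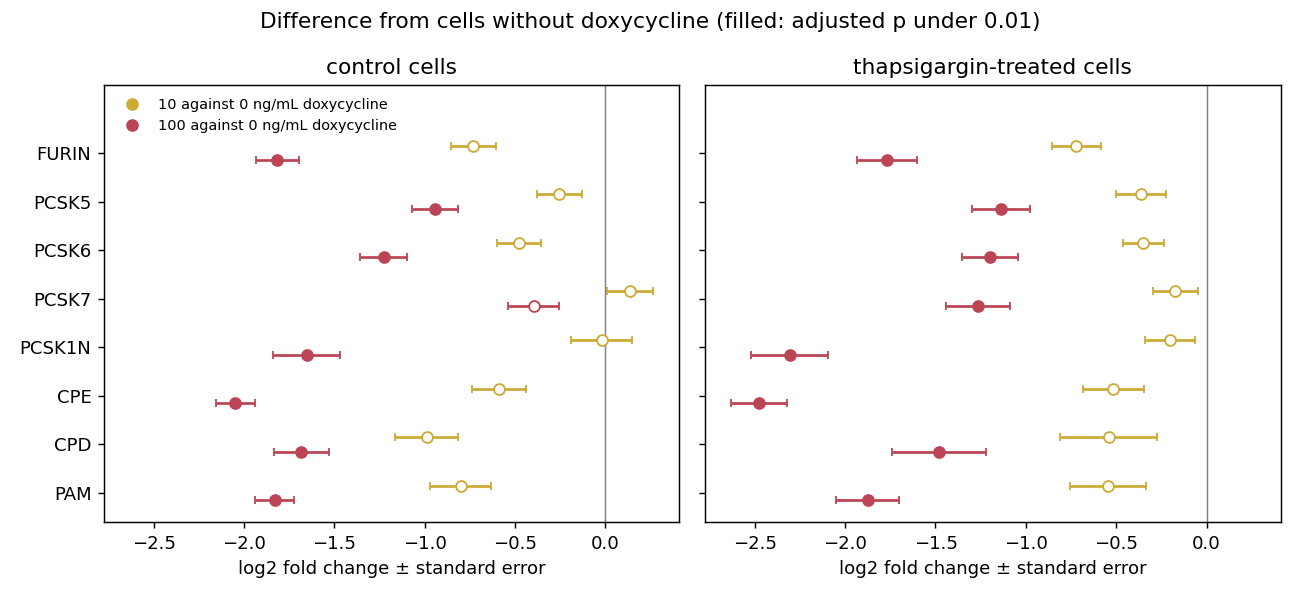
Log2 fold change of each gene at 10 and 100 ng/mL against 0 ng/mL doxycycline, with bars of 1 standard error, in control cells (left) and thapsigargin-treated cells (right), from edgeR without pairing. Filled points have an adjusted p under 0.01: 7 of 8 at 100 ng/mL in control cells, 8 of 8 with thapsigargin, and none at 10 ng/mL.

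The effect of thapsigargin was compared at each dose. In cells without doxycycline, PAM was the single gene called by edgeR, from 154, 169 and 169.7 CPM to 115, 119 and 107 CPM, a fall of 0.53 on the log2 scale (standard error 0.101, adjusted p = 0.00275). This call was lost without control replicate 3 or thapsigargin replicate 1 (adjusted p up to 0.0173) and in a fit of all 6 groups (0.0922). Among all tested genes, 4.74% were called lower and 20.0% were lower without overlap, against 1 and 5 of the 8. CPE was at -0.31 (standard error 0.0952, adjusted p = 0.0316), PCSK6 at -0.34 (standard error 0.109, adjusted p = 0.0393) and CPD at -0.49 (standard error 0.17, adjusted p = 0.0551). PCSK7 was the one gene on the other side, with each of the 3 thapsigargin libraries (57.4 to 69.5 CPM) above each control library (45.8 to 55.3 CPM), but its 0.29 (standard error 0.121, adjusted p = 0.106) did not pass. Over all tested genes, 2878 of 14397 were higher without overlap. The median of the 8 was -0.30 beside -0.01 over all genes.

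At 10 ng/mL, thapsigargin gave no call among the 8 by edgeR or DESeq2, 1 unadjusted p below 0.05 (PCSK5, beside 24.7% of all genes), and none of the 8 without overlap, where 0.294% of 14607 genes were called lower and 12.9% were lower without overlap. At 100 ng/mL it gave no call by edgeR either, where 0.0208% of 14427 genes were called lower. There, 5 of the 8 and 27.0% of all genes had an unadjusted p below 0.05. DESeq2 called CPE, with 3.61% of genes called lower by it, and 6 of the 8 were lower without overlap, against 15.1% of all genes. CPE was at 57.3, 64.8 and 65.8 CPM in control cells and 35.2, 31.1 and 42.6 CPM with thapsigargin, a log2 fold change of -0.77 (standard error 0.156, adjusted p = 0.0324). PCSK1N was at -0.82 (standard error 0.257, adjusted p = 0.0958) and PCSK7 at -0.60 (standard error 0.192, adjusted p = 0.0984), with all 3 thapsigargin libraries below all 3 control libraries for both. Without thapsigargin replicate 1 at this dose, PCSK7 and CPE were called, with an adjusted p of 0.00243 and 0.00274. Leaving out that library moved the calls over all genes from 29 to 2568, with 7.84% of genes called lower.

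Whether the response to thapsigargin differed with the dose was tested as an interaction in fits of 12 libraries. At 10 ng/mL none of the 8 was called by edgeR or DESeq2, none had an unadjusted p below 0.05, as 4.47% of all genes did, and 0% of 14857 genes were called lower. At 100 ng/mL none of the 8 was called by either tool, beside 0.0339% of 14768 genes called lower by edgeR and 1.72% by DESeq2. PCSK7, PCSK1N and CPE had an unadjusted p below 0.05, 3 of the 8, beside 24.7% of all genes. PCSK7 differed most, with a response lower by 0.81 on the log2 scale at 100 ng/mL than without doxycycline (standard error 0.217, adjusted p = 0.075). Without thapsigargin replicate 1 at 100 ng/mL PCSK7 was called (adjusted p = 0.0035), as were 2.82% of all genes in the lower direction. PCSK1N differed by -0.59 (standard error 0.26, adjusted p = 0.182) and CPE by -0.37 (standard error 0.16, adjusted p = 0.171), and the other 5 by -0.14 to 0.26.

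**Figure D4:**
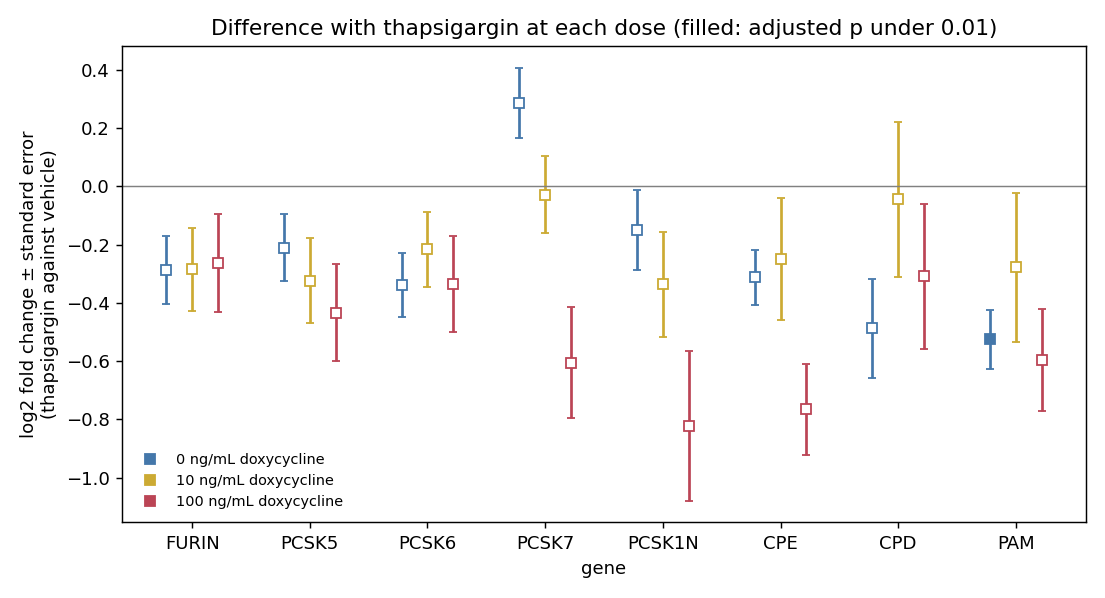
Log2 fold change of each gene with thapsigargin against vehicle at 0, 10 and 100 ng/mL doxycycline, with bars of 1 standard error. The filled point, PAM without doxycycline (-0.53), is the one with an adjusted p under 0.01, and PCSK7 runs from 0.29 at 0 ng/mL over -0.03 at 10 ng/mL to -0.60 at 100 ng/mL.

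Ordered by mean level, both groups at 100 ng/mL came last for all 8 genes. For FURIN, PCSK5, PCSK6, PCSK1N, CPE and PAM, the control libraries at 100 ng/mL lay below all libraries of the group next above, the thapsigargin-treated cells at 10 ng/mL. Among the 4 groups at 0 and 10 ng/mL, most neighbours in the order overlapped. For CPD, the thapsigargin-treated libraries at 10 ng/mL (95.2 to 207 CPM) overlapped with control cells at 100 ng/mL (82.0 to 118 CPM). For PCSK7 only the thapsigargin-treated cells at 100 ng/mL (21.8 to 32.2 CPM) stood apart from the next group (34.1 to 47.0 CPM).

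Across the 18 libraries, which share their dose groups and scaling, Pearson's r of log2 CPM between pairs of the 8 genes ran from 0.53 (PCSK7 and CPD) to 0.98 (CPE and PAM). The genes with the most similar pattern to CPE were WLS (r = 0.993), the carrier of Wnt proteins, and APP (r = 0.992), the amyloid precursor. Those of PCSK1N were CTSD (r = 0.990), a lysosomal protease, and GTF3C1 (r = 0.983). For PAM, COCH had the highest r (0.992). FURIN was most like LPPR2 and the integrin gene ITGB5 (r = 0.988 and 0.987), PCSK6 most like ERGIC1 and ICMT (0.988 and 0.987), PCSK5 most like SEMA6A and ICMT (0.986 and 0.981), CPD most like ATP7A and CLCN3 (both 0.990) and PCSK7 most like the nucleotide sugar transporter genes SLC35C2 and SLC35A2 (0.990 and 0.984).

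Other genes of the pathway were counted from lists made by general knowledge, but with earlier results of these data known. The counts per list are therefore descriptive, and no list is an independent test. At 100 against 0 ng/mL in control cells, 7.49% of all tested genes were called lower. Of the other convertases and their regulators, 6 of 9 were tested at 100 ng/mL against 0 ng/mL in control cells, and PCSK2 and MBTPS1 fell. PCSK2, a convertase of neuroendocrine granules, went from 13.2 ± 1.42 to 3.59 ± 0.226 CPM (log2 fold change -1.92, standard error 0.164, adjusted p = 5.58e-06). MBTPS1, the site-1 protease that activates ATF6 and SREBPs, went from 282 ± 4.21 to 173 ± 9.30 CPM (log2 fold change -0.75, standard error 0.0975, adjusted p = 0.00016).

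Of 13 other carboxypeptidases and glutaminyl cyclases, 9 were tested and 5 were called lower, beside 7.49% of all tested genes. The fifth of these was QPCT, a glutaminyl cyclase (-0.58). The 4 with the largest changes are not known as prohormone enzymes. CTSA, the lysosomal protective protein, went from 119.8 ± 9.05 to 27.9 ± 0.384 CPM (log2 fold change -2.15, standard error 0.113, adjusted p = 1.8e-07). CPQ, SCPEP1 and CPVL, carboxypeptidases of lysosomes or the secretory route, fell by 2.17, 1.12 and 0.83 on the log2 scale. None of 6 tested granin and granule genes (of 10 listed) and none of 14 tested peptide hormone precursors (of 36 listed) was called by edgeR or by DESeq2. Their medians were -0.29 and -0.19, and 2 and 3 of them had an unadjusted p below 0.05, as did 29.3% of all tested genes. Below 0 were 5 of the 6 and 9 of the 14. The largest falls, SCG3 at -1.26 (adjusted p = 0.0170 by edgeR) and NTS at -1.24 (0.0202), missed the threshold. Some of these genes had few reads, such as CHGA with 0 to 28 counts in a library.

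Many mRNAs of receptors and adhesion proteins that convertases are known to cut fell as well. Of 30 tested, 24 were called lower and none higher, all 30 had a log2 fold change below 0, and the median was -0.94. Over all tested genes, 7.49% were called lower and 7344 of 14444 had a log2 fold change below 0. ATP6AP1, a subunit of the vacuolar proton pump, went from 186 ± 11.7 to 48.3 ± 7.08 CPM (log2 fold change -1.98, standard error 0.129, adjusted p = 5.63e-07), and NOTCH3 and PTPRF had log2 fold changes of -1.96 and -1.75. Of 23 genes of the metalloproteinase families listed as convertase substrates, 12 were called lower and none higher, with a median of -0.75. The largest falls were those of ADAM23 (-1.57) and MMP15 (-1.53). Of 25 tested ligands and secreted proteins, 6 were called lower, among them the matrix genes COL5A1 (-2.03), FBN1 (-1.76) and FBN2 (-1.34) and the growth factor gene TGFB1 (-1.03).

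Of 16 tested genes for convertase sorting, 3 were called lower, beside 7.49% of all tested genes, and the median was -0.04. These 3 were the mannose 6-phosphate receptors M6PR (-1.62) and IGF2R (-1.57) and the actin crosslinker FLNA (-1.06), while no subunit of the retromer, the AP-1 adaptor or the GGA adaptors on the list was called. Under thapsigargin at 100 against 0 ng/mL, 9.00% of all tested genes were called lower. The counts called lower there were 23 of 30 receptors, 12 of 23 genes of the metalloproteinase list and 8 of 26 ligands. They were 4 of 9 for carboxypeptidases, 2 of 6 for convertases and 3 of 16 for sorting genes. There CHGB, a granin (-1.50, adjusted p = 0.00748), and NMB, a peptide precursor (-1.32, adjusted p = 0.00959), were called as well, both named after their values were seen. Beside these lists, the summed CPM of the endocrine markers CHGA, INS, NEUROD1, SYP, PCSK1 and PCSK2 lay between 26.7 and 28.5 without doxycycline and between 12.5 and 14.3 at 100 ng/mL in control cells, and its part in the results was not tested.

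**Figure D5:**
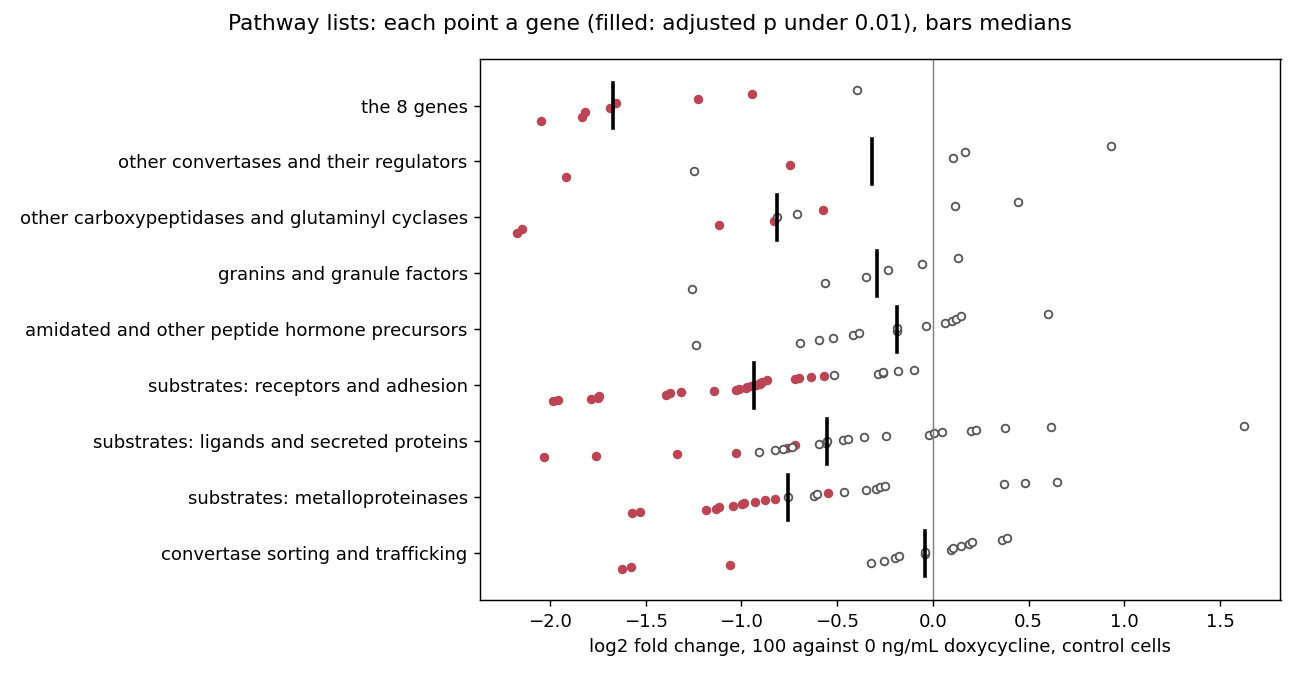
Log2 fold change at 100 against 0 ng/mL doxycycline in control cells for each tested gene of the 8 and of 8 pathway lists, with filled points for an adjusted p under 0.01 and bars for medians. The 8 genes (median -1.67) and the receptors and adhesion proteins (median -0.94) lie below 0 throughout, and the sorting genes centre near 0 (median -0.04) except for M6PR, IGF2R and FLNA.

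In cells without doxycycline, thapsigargin changed some genes of these lists. Among the receptors, 9 of 30 were called lower, beside 4.74% of all tested genes. NOTCH3 went from 44.0 ± 8.52 to 14.4 ± 3.21 CPM (log2 fold change -1.60, standard error 0.18, adjusted p = 6.25e-05). The peptide precursor ADM2, known to be induced by ER stress, rose from 2.21 ± 0.726 to 18.1 ± 9.22 CPM (log2 fold change 3.03, standard error 0.342, adjusted p = 6.25e-05). QPCTL, the Golgi glutaminyl cyclase, rose by 0.67 (standard error 0.142, adjusted p = 0.00498) and SERPINB8, an inhibitor of FURIN, by 0.68 (standard error 0.144, adjusted p = 0.00484), calls that held in 7 and 8 of their 12 alternatives. In the interaction at 100 ng/mL, none of 133 tested genes of the 8 lists was called by edgeR, 28 had an unadjusted p below 0.05, where 24.7% of all genes did, and DESeq2, with 341 calls over all genes, called 5 of the 133, among them ATP6AP1, COL5A1, INSR and QPCTL.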

How the data were processed

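The authors deposited raw counts of reads per gene for 18 libraries, made with a KAPA stranded mRNA kit. The submitters' processing notes name STAR, DESeq2 and the build hg38, while versions, annotation and the strand setting are not given in the sources used here. No column of per-sample values was left unused (0 columns), and the table held no rows for unassigned reads.

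Counts were tested with edgeR 4.0.16 in R 4.3.3 (filterByExpr with a minimum count of 10, TMM scaling, glmQLFit and glmQLFTest on the groups compared, Benjamini-Hochberg adjustment over all genes tested, threshold 0.01). Each standard error was taken as the absolute log2 fold change over the root of the F statistic. Library totals ran from 14876416 to 24652240, and replicates differed beyond counting noise (chi-square per degree of freedom 7.33 to 63.8). With 3 against 3 libraries, an exact permutation test of a single gene cannot go below a p of 0.10. The test was run first on simulated counts with known changes.

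Alternatives were DESeq2 1.42.0, DESeq2's size factors (RLE) in edgeR, library totals alone, no filter, all 6 groups in the fit, the replicate number as a block, a threshold of 0.05, and leaving out each library. Same-numbered libraries were treated as possibly paired in the comparison of 10 with 0 ng/mL under thapsigargin. The correlations of their deviations there were 0.343 to 0.468, over 0.1 in every pair, which does not show pairing. In the other 7 comparisons of 2 groups at least 1 pair lay below 0.1. limma 3.58.1 was loaded by edgeR, and tables and plots were made with Python 3.11.15, pandas 2.3.3 and matplotlib 3.10.9.

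Gene positions, lengths and transcripts came from GENCODE 29, matched by symbol for 22677 of 25435 rows (28 rows bear dates in place of symbols). The main transcript is the APPRIS principal one, the longest coding one among equals. Promoters came from RefSeq (GRCh38.p14).

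Named genes were the 8 genes, ERN2 and stress genes as checks, up to 4 called genes a list with the largest changes at 100 against 0 ng/mL in control cells and with thapsigargin without doxycycline, and the 2 genes most correlated with each of the 8. Some results that this rule selects are not reported here. The genes and lists were chosen with earlier results of these data known.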

Additional observations from a re-analysis of the deposited data

Results flagged for a closer look

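The libraries of PCSK7 lay on opposite sides with thapsigargin at 0 and at 100 ng/mL doxycycline, although neither difference passed the test (log2 fold change 0.29, adjusted p = 0.106, and -0.60, adjusted p = 0.0984). Without doxycycline every thapsigargin library (57.4, 60.0 and 69.5 CPM) lay above every control library (53.1, 45.8 and 55.3 CPM), and at 100 ng/mL every thapsigargin library (32.2, 21.8 and 23.8 CPM) lay below every control library (34.1, 47.0 and 39.1 CPM). Over all tested genes, 2878 of 14397 were higher without overlap at 0 ng/mL, and 15.1% were lower without overlap at 100 ng/mL. In the interaction, 24.7% of all genes had an unadjusted p below 0.05 by edgeR. The interaction was -0.81 on the log2 scale (standard error 0.217) and did not pass the threshold by edgeR's quasi-likelihood test (adjusted p = 0.075). Over the alternatives the adjusted p ran from 0.0035, without thapsigargin replicate 1 at 100 ng/mL, to 0.203, and DESeq2 gave 0.0116. Leaving out that library moved the interaction calls over all genes from 6 to 1286, and DESeq2 called 341. TAGLN, which overlaps PCSK7 on the other strand, had an interaction of -0.12 (standard error 0.381, adjusted p = 0.863).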

How the results depend on the processing

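At 100 against 0 ng/mL, the count of the 8 genes called stayed at 7 in control cells and 8 under thapsigargin in all settings but those leaving out a library, which gave 7 to 8 in both. Over all genes, those called lower ran from 704 to 1612 in control cells and from 733 to 2044 under thapsigargin. The other counts moved. At 10 against 0 ng/mL in control cells, 0 became 5 with DESeq2, 4 with no filter, 3 with the replicate block and 2 at a threshold of 0.05, and 0 to 5 with a library left out. Genes called lower over the whole set went from 8 to 272, 468, 89 and 57, and to 0 to 1566 with a library left out. From 10 to 100 ng/mL, 3 became 6 with DESeq2, no filter, all 6 groups in the fit or a threshold of 0.05, 8 with the replicate block, and 0 to 4 with a library left out. The genes called lower there went from 354 to 771, 633, 624, 821 and 1122, in that order, and to 0 to 485 with a library left out. For thapsigargin without doxycycline, 1 became 2 with no filter, 0 with all 6 groups, 4 with the replicate block, 3 at a threshold of 0.05, and 0 to 2 with a library left out. Here 682 genes called lower became 974, 510, 1726 and 1507, and 295 to 809 with a library left out. For thapsigargin at 10 ng/mL, 0 became 1 with the replicate block, while genes called lower went from 43 to 1666. At 100 ng/mL, 0 became 1 with DESeq2, all 6 groups or a threshold of 0.05, and 0 to 2 with a library left out. There, 3 genes called lower became 466, 708 and 342, and 0 to 1142 with a library left out. At 10 against 0 ng/mL under thapsigargin, 0 became 1 with DESeq2 and 5 with the replicate block, while genes called lower went from 0 to 37 and 367. The interaction at 10 ng/mL stayed at 0, and that at 100 ng/mL was 0 to 1 with a library left out. In the latter, 5 genes called lower became 2 to 421. The cause of these changes was not tested.

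Signs turned for small differences that passed no test. For the interaction at 100 ng/mL, PAM was at -0.0493 with DESeq2, -0.0488 with RLE factors, -0.163 with library totals alone, -0.0235 with no filter and -0.10 with all 6 groups. There FURIN was at -0.0594 with library totals and -0.0122 with all 6 groups, and PCSK6 at -0.0823 and -0.029. For the interaction at 10 ng/mL, FURIN was at -0.00682 with library totals. With a library left out, the log2 values ran as follows. PCSK1N was at -0.18 to 0.14 at 10 against 0 ng/mL in control cells. With thapsigargin at 10 ng/mL, CPD was at -0.30 to 0.22 and PCSK7 at -0.14 to 0.0316. In the interaction at 10 ng/mL, FURIN was at -0.10 to 0.14 and CPE at -0.11 to 0.26. In the interaction at 100 ng/mL, FURIN was at -0.10 to 0.21, PCSK6 at -0.0668 to 0.18, CPD at -0.10 to 0.45 and PAM at -0.20 to 0.14. Library totals alone moved the median of all genes in that interaction from 0.04 to -0.14.

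Apart from 10 against 0 ng/mL under thapsigargin, at least 1 same-numbered pair in each comparison correlated below 0.1, so the numbers were not taken to pair the libraries. In 3 of these comparisons 2 of the 3 pairs were above 0.1, and the replicate block raised the calls over all genes from 356 to 1224 (10 to 100 ng/mL, pairs at 0.521, 0.281 and -0.0175), from 1611 to 3571 (thapsigargin without doxycycline, 0.0828, 0.204 and 0.272) and from 212 to 3620 (thapsigargin at 10 ng/mL, 0.499, -0.0332 and 0.439). PCSK1N, with 35 to 171 counts per library at 100 ng/mL, was the least precisely counted of the 8.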
